A study of Gallus gallus with 2 samples.

Results

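The genes described here make, sense, import, elongate and burn sterols and fatty acids, and 1 makes prostaglandin D2. They were chosen by name, as the probes whose RefSeq accession belongs to 1 of 43 listed chicken gene symbols. At least 1 probe carried 28 of these symbols, with 65 probes in all, among 5382 genes named on the array in this way. The other 15 symbols (MVK, MVD, IDI1, FDPS, CYP51A1, SC5D, INSIG2, SCAP, SREBF2, NPC1, ELOVL1, FADS1, ACSL3, ACADM and HADHB) had no probe named by accession and were not analysed here.

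RNA came from DT40, a chicken B cell line, in 2 groups of 1 array each. The first culture stably expressed FLAG-H2A.Z-R80C, a mutant of a histone variant that replaces H2A in some nucleosomes, and the second stably expressed FLAG-H2A.Z.1. Both lacked the endogenous H2A.Z genes (double-knockout) and grew in serum-containing medium in the absence of tetracycline. Neither a clone number nor a promoter of the transgenes is given in the sources used here. The comparison addresses how transcript levels differ between cells carrying the cancer-associated mutant and cells carrying H2A.Z.1. Groups of 1 array allow no test, and each difference below describes these arrays only.

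Animal cells make cholesterol from acetyl-CoA through mevalonate, squalene and lanosterol. When sterol is scarce in the endoplasmic reticulum, SCAP escorts the SREBP transcription factors to the Golgi, where they are cleaved and go on to switch on genes of sterol synthesis, fatty acid synthesis and lipoprotein uptake. INSIG proteins hold the complex back when sterol is plentiful. Fatty acids are burned in mitochondria after transfer to carnitine, a step that opposes synthesis.

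The R80C and H2A.Z.1 arrays had 71.5% and 70.1% of non-control spots well above background, Agilent's flag for a spot clearly brighter than its surroundings. No spot was saturated on either array. Of the B cell markers, 11 of 16 had a named probe and all 11, PAX5, CD79B and BTK among them, were well above background on both arrays. Signals are Agilent's processed, background-subtracted brightness on a linear scale. A difference is log2 R80C minus H2A.Z.1 after division of each array by its 75th percentile, which adds 0.03 to the log2 ratio of the printed signals. A gene's difference is the mean over its probes well above background on both arrays. For the 11 B cell markers it ran from -0.48 (JCHAIN) to 0.29 (EBF1), with 4 above 0, 7 below and a median of -0.059. Brightness depends on the probe as well as the transcript, so the signals of different probes are not ranked.

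Of the 28 genes, 24 were measured on both arrays. Across all named genes with a probe the measured share was 80.4%. None of the 24 was 1.5-fold higher in R80C cells and none was 1.5-fold lower, where 0.67% and 1.27% of the 4326 named genes measured on both arrays passed these limits. At 1.2-fold, none was higher and 2 were lower (ELOVL2 and CPT1A), against a background of 4.07% higher and 5.99% lower. The median difference of the 24 was 0.0097 and that of all measured named genes 0.013. Their standard deviation (SD) was 0.12, and 0.20 over all measured named genes. For scale, probes of 1 gene differed in this measure with an SD of 0.094. Signs of values this small depend on the scaling: 13 of the 24 lay above 0 and 11 below, and with scaling on the array median 17 lay above and 7 below.

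**Figure D1:**
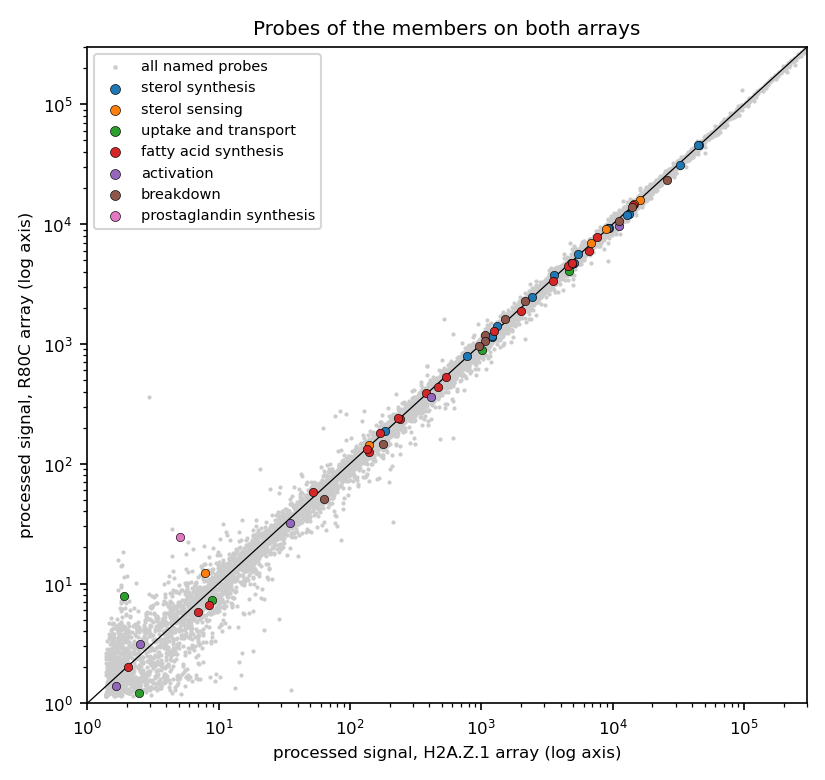
Processed signal of each probe on the R80C array (vertical, log axis) against the H2A.Z.1 array (horizontal, log axis), with the 65 probes of the lipid genes coloured by role, all named probes in grey and the line of equal signal in black. The coloured points follow the line except among dim probes, such as that of HPGDS.

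The 7 sterol synthesis genes with probes were all well above background on both arrays, at each of their 18 probes. Their median difference was 0.025 and their range -0.071 to 0.099, with 5 above 0 and 2 below. HMGCS1, which makes HMG-CoA from acetyl-CoA units, gave processed signals of 9347, 2461 and 1161 at its 3 probes in R80C cells and 9315, 2422 and 1196 in H2A.Z.1 cells, a mean difference of 0.025. Its probes fell on both sides of 0. FDFT1, squalene synthase and the first committed enzyme of the sterol branch, read 45825 and 1422 in R80C cells, and 45583 and 1304 in H2A.Z.1 cells. Its difference of 0.097 came mostly from the dimmer probe (0.16), and the brighter one alone gave 0.038.

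SQLE, the squalene epoxidase, read 30988 and 187 in R80C cells, against 32360 and 186 in H2A.Z.1 cells, with a difference of 0.0044. LSS closes the epoxide into lanosterol. Its signals were 45671, 9329 and 791 in R80C cells, against 44553, 9245 and 776 in H2A.Z.1 cells. The LSS difference was 0.056, with its probes between 0.044 and 0.066.

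After lanosterol, methyl groups are removed and double bonds are shifted. MSMO1, a methylsterol oxidase, read 12091, 11921, 4742 and 4652 in R80C cells, against 13207, 12903, 5099 and 4852 in H2A.Z.1 cells. All 4 of its probes were lower in R80C cells in this scaling, with a mean difference of -0.071. HSD17B7, the ketoreductase that acts after MSMO1, pointed the other way, with 5608 and 3766 in R80C cells and 5383 and 3570 in H2A.Z.1 cells (0.099). The difference of MSMO1 stayed below 0 and that of HSD17B7 above 0 under all 10 alternative settings. DHCR7, which makes cholesterol from its immediate precursor, read 4760 and 1148 in R80C cells, and 4779 and 1212 in H2A.Z.1 cells (-0.011).

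Sterol sensing was represented by INSIG1 and SREBF1. INSIG1, itself a target of the SREBP factors, had signals of 15855, 14739, 9165 and 6930 in R80C cells, against 16117, 14562, 8833 and 6839 in H2A.Z.1 cells. Its 4 probes ranged from 0.0071 to 0.084, all above 0 after scaling, with a mean of 0.047. SREBF1 encodes the SREBP that favours fatty acid genes. Its brighter probe read 142 in R80C cells and 138 in H2A.Z.1 cells (0.068). Its other probe read 12.2 in R80C cells, well above background, and 7.95 in H2A.Z.1 cells, not well above background, so that the gene's value rests on 1 probe.

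Of the uptake and transport genes, NPC2, which carries cholesterol out of the lysosome, was bright and VLDLR was not. NPC2 had 1 probe printed once, with 4083 in R80C cells and 4643 in H2A.Z.1 cells, and 1 printed 5 times. The 5 spots read 851, 861, 913, 917 and 940 in R80C cells, and 993, 998, 1001, 1020 and 1039 in H2A.Z.1 cells. After scaling all 5 R80C spots lay below all 5 H2A.Z.1 spots, as did 12.5% of the 40 probes printed 5 times. More of the 40 had all R80C spots above all H2A.Z.1 spots, so that full separation of the spots was not rare. Spots of an array share 1 RNA sample, so this concerns the reading of the arrays and not biological spread. The NPC2 difference was -0.15 over both probes and ranged from -0.17 to -0.11 over the alternative settings.

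VLDLR is a receptor for lipoproteins, known in hens for loading yolk into the oocyte. In H2A.Z.1 cells none of its 3 probes was well above background. In R80C cells 1 of 3 was, with a signal of 7.91 against 1.89 in H2A.Z.1 cells. Set against the lowest well-above-background signal of the H2A.Z.1 array (6.95), it was 1.16-fold higher after scaling, which is no strict lower bound. Its other probes read 7.35 and 1.21 in R80C cells, and 8.93 and 2.49 in H2A.Z.1 cells, lower in R80C cells at both and not well above background on either array.

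Among the 8 fatty acid synthesis genes with probes, 7 were measured on both arrays, with a median difference of -0.00020, 3 above 0 and 4 below. ACLY, which supplies cytosolic acetyl-CoA from citrate, read 5971, 526, 437 and 133 in R80C cells, and 6532, 539, 465 and 135 in H2A.Z.1 cells (-0.035). ACACA, the carboxylase that makes malonyl-CoA, read 1889, 125 and 58.0 in R80C cells, against 2015, 139 and 52.2 in H2A.Z.1 cells. Its mean of -0.00020 combined probes from -0.12 to 0.18. Among the 28 genes this was the widest spread of probes well above background on both arrays. FASN, the fatty acid synthase, had 14444, 4734 and 234 in R80C cells and 14126, 4915 and 238 in H2A.Z.1 cells (0.015). The gene values of these 3 enzymes ran from -0.035 to 0.015.

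Enzymes that lengthen or desaturate the product had gene values from -0.025 to 0.086 where they were bright. SCD, which makes monounsaturated fatty acids, read 1273 and 240 in R80C cells, and 1243 and 234 in H2A.Z.1 cells (0.068). ELOVL5, an elongase of polyunsaturated chains, read 7814, 387 and 181 in R80C cells, and 7617, 376 and 170 in H2A.Z.1 cells (0.086, all 3 probes above 0). ELOVL6, an elongase of saturated chains, read 4468 and 3352 in R80C cells, and 4594 and 3520 in H2A.Z.1 cells (-0.025).

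The probes of ELOVL2, an elongase of long polyunsaturated chains, and of FADS2 read near or below the detection limit. ELOVL2 read 6.58 in R80C cells and 8.45 in H2A.Z.1 cells at its only probe, 1.26-fold lower. Agilent's own error for these values was 1.43 and 1.74, and the ELOVL2 difference of -0.33 was smaller than its combined error of 0.43. After normexp background correction with quantile normalization it stood at -0.044. FADS2, a front-end desaturase, was not well above background on either array, with 5.73 and 1.99 in R80C cells and 6.92 and 2.04 in H2A.Z.1 cells. ACSL1 was likewise dim on both, so that 2 of the 28 genes were above background on neither array, where the share over all named genes with a probe was 17.3%.

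**Figure D2:**
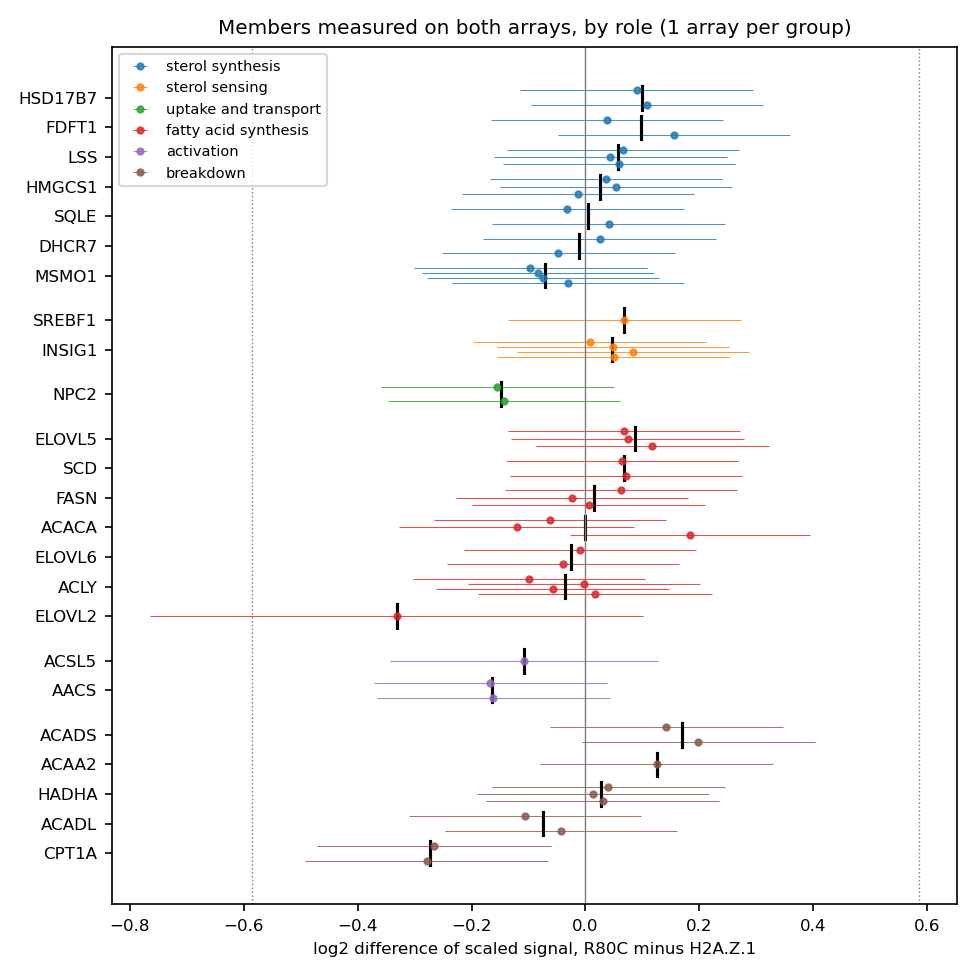
Log2 difference of the scaled signal, R80C minus H2A.Z.1, for the 24 lipid genes measured on both arrays, grouped by role. Points are probes with Agilent's error of the difference as bars, black ticks are gene means and dotted lines mark 1.5-fold. The bars are the software's own error and no spread measured between spots. No gene mean reaches a dotted line, and the CPT1A bars are the ones that end short of 0.

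Fatty acids and acetoacetate are activated by joining to coenzyme A. ACSL1, an acyl-CoA synthetase, read 1.41 in R80C cells and 1.66 in H2A.Z.1 cells. Its relative ACSL5 read 32.0 in R80C cells and 35.2 in H2A.Z.1 cells at the probe that was above background (-0.11). A second ACSL5 probe, not well above background, read 3.15 in R80C cells and 2.53 in H2A.Z.1 cells, and the sign of the gene's difference turns when it is counted. AACS, which activates acetoacetate in the cytosol for lipid synthesis, read 9684 and 364 in R80C cells, and 11104 and 416 in H2A.Z.1 cells. Both AACS probes lay close together, at -0.17 and -0.16, and the gene was 1.12-fold lower in R80C cells.

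The 5 breakdown genes with probes were measured on both arrays and ranged from -0.27 to 0.17. CPT1A, the outer-membrane carnitine palmitoyltransferase that limits entry into oxidation, read 145 and 51.0 in R80C cells, against 178 and 63.2 in H2A.Z.1 cells. Both probes were lower in R80C cells, at -0.27 and -0.28, and the gene was 1.21-fold lower. These were the 2 of 56 measured lipid gene probes whose difference exceeded Agilent's own error (0.20 and 0.21 for them). Of the measured probes of all named genes, 12% did. Among well-above-background spots that error had a median of 10.0% of the signal on each array. For bright probes it thus acts as a nearly fixed limit and is no spread measured between spots or cultures. The CPT1A difference shrank to -0.12 after normexp with quantile normalization and lay between -0.29 and -0.23 under the other alternatives.

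ACADS, the dehydrogenase of short chains, read 1620 and 1194 in R80C cells and 1500 and 1063 in H2A.Z.1 cells. Its 2 probes stood at 0.14 and 0.20, and its mean of 0.17 was the highest of the 24 genes in this scaling. ACAA2, the thiolase of the last step, read 2284 in R80C cells and 2140 in H2A.Z.1 cells at its only probe (0.12). ACADL, the dehydrogenase of long chains, read 23496 and 10520 in R80C cells, and 25830 and 11067 in H2A.Z.1 cells (-0.074). HADHA, the alpha subunit of the trifunctional protein, read 13958, 1056 and 954 in R80C cells, and 13865, 1068 and 955 in H2A.Z.1 cells (0.028). The 5 breakdown genes had a median of 0.028, with 3 above 0 and 2 below under each of the 10 alternative settings too. Synthesis and breakdown genes alike held values on either side of 0.

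Signal strength moved with the spread. Among named genes with a mean signal of at least 200 the SD of the difference was 0.14, and under 200 it was 0.31. The 20 lipid genes of at least 200 had an SD of 0.086 and a range of -0.16 to 0.17, and the 4 dimmer ones (SREBF1, ELOVL2, ACSL5 and CPT1A) ranged from -0.33 to 0.068. Both genes past 1.2-fold were among these 4.

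**Figure D3:**
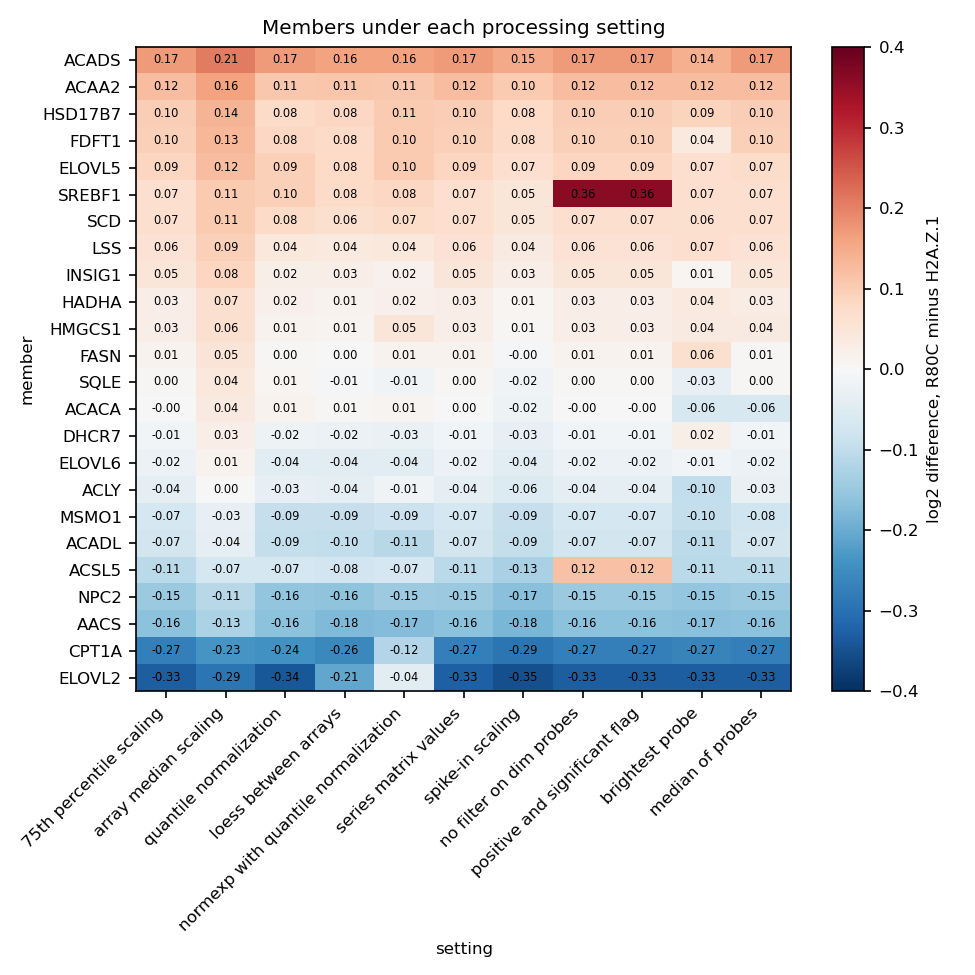
Log2 difference, R80C minus H2A.Z.1, of the 24 lipid genes (rows) under the scaling used in the text and 10 alternative settings (columns), with red above 0 and blue below. ACADS and ACAA2 stay above 0 and NPC2, AACS, CPT1A and ELOVL2 below 0 in each column, whereas 7 genes, ACSL5 and 6 near 0, change sign in at least 1 column.

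HPGDS, the haematopoietic prostaglandin D synthase and a glutathione transferase by family, had 1 probe. It read 24.7 in R80C cells, well above background, and 5.07 in H2A.Z.1 cells, not well above background. Agilent's error was 2.90 in R80C cells and 1.96 in H2A.Z.1 cells. Before any correction the spot's median brightness was 51 over a local background of 28 in R80C cells, and 36 over 27 in H2A.Z.1 cells. The lowest signal with that flag on the H2A.Z.1 array was 6.95. Set against it the R80C signal of HPGDS was 3.62-fold higher after scaling, which is no strict lower bound. By this measure 1 of the 28 lipid genes and 0.465% of all named genes with a probe reached 1.5-fold in this direction. HPGDS and VLDLR were the lipid genes above background on 1 array only, both in R80C cells. Of the 5382 named genes with a probe, 101 were above background in R80C cells only and 24 in H2A.Z.1 cells only. The lowest signal with the flag was also lower on the R80C array (5.81). Normexp with an offset of 50 and quantile normalization gave 0.28 at the HPGDS probe on the log2 scale. That value is no fold, since the H2A.Z.1 spot was not well above background. The gene was placed on the list with its value already known.

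HPGDS is known from mast cells, macrophages and other blood cells, and markers of such cells were read beside it. Of 6 mast cell and basophil markers, 5 had a probe. KIT was above background on neither array, and FCER1G, MITF, GATA2 and HDC differed by 0.035 to 0.15. The summed signal of all probes on that list was 1688 in R80C cells and 1690 in H2A.Z.1 cells. For macrophage and myeloid markers (6 of 9 with a probe) the sum was 798 in R80C cells and 817 in H2A.Z.1 cells, most of it from SPI1, and MARCO and CD14 were above background on neither array. Of the 4 measured, CSF3R and TIMD4 stood at -0.54, LYZ at -0.10 and SPI1 at 0.048. CSF3R and TIMD4 each rest on 1 dim probe of 2. CSF3R read 10.2 in R80C cells and 15.2 in H2A.Z.1 cells, and TIMD4 24.4 in R80C cells and 36.4 in H2A.Z.1 cells. Fibroblast markers (5 of 6 with a probe) summed to 1665 in R80C cells and 910 in H2A.Z.1 cells, with DCN above background on neither array. COL1A2 alone held 1561 of the sum in R80C cells and 801 in H2A.Z.1 cells, and differed by 0.94. The 4 of its 5 probes that were well above background on both arrays ranged from 0.084 to 1.56. POSTN stood at 0.32 from 1 dim probe of 5 (8.77 in R80C cells, 7.17 in H2A.Z.1 cells). LUM stood at 0.27 from 1 dim probe of 3 (12.5 in R80C cells, 10.6 in H2A.Z.1 cells). The other probes of both genes, not well above background on either array, were lower in R80C cells. COL3A1 stood at -0.083. T cell markers (6 of 9) summed to 72558 in R80C cells and 80306 in H2A.Z.1 cells, nearly all of it from CD3D, and CD4 was above background on neither array. Of the 5 measured, 3 lay above 0 and 2 below, from CD3E at -1.54 to CD5 at 0.50, with a median of 0.038. Hepatocyte and adipocyte markers, the lipid-rich cell types (9 of 9), summed to 638 in R80C cells and 651 in H2A.Z.1 cells, with TTR and FABP1 above background on neither array. Their 6 measured genes ran from FABP4 at -0.48 to ALB at 0.29, with 3 on each side of 0. FABP4 rests on 1 dim probe of 3 (7.50 in R80C cells, 10.6 in H2A.Z.1 cells). ALB rests on 1 probe of 2 (117 in R80C cells, 97.7 in H2A.Z.1 cells). Erythroid and thrombocyte markers (3 of 7) summed to 40 in R80C cells and 30 in H2A.Z.1 cells, with HBZ and TAL1 above background on neither array. HBBA was measured at 1 dim probe of 3, with 20.2 in R80C cells and 17.3 in H2A.Z.1 cells (0.25). In bulk RNA, more cells of a type and more RNA per cell cannot be told apart, and the part of these markers in the HPGDS value was not tested.

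**Figure D4:**
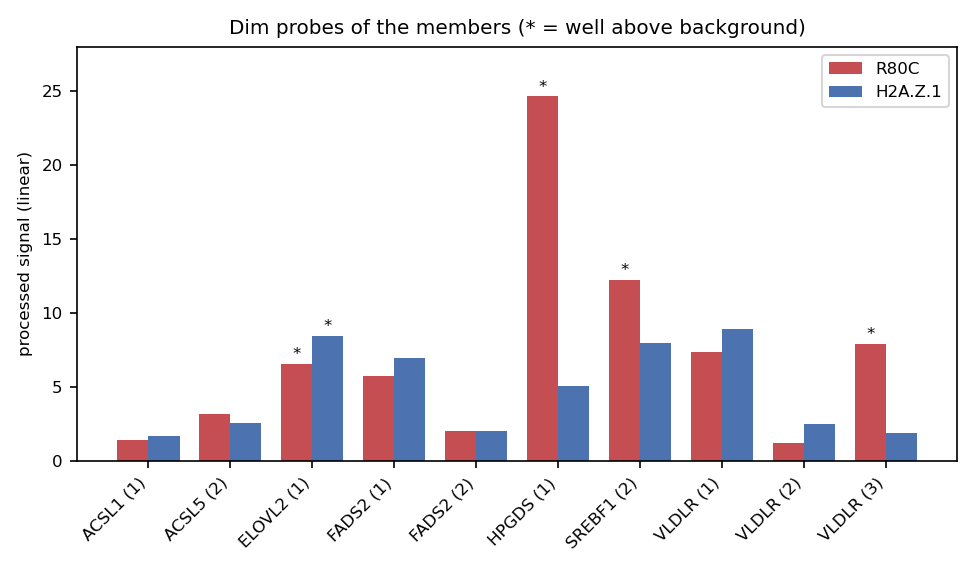
Processed signal (linear axis) in R80C cells (red, left bar) and H2A.Z.1 cells (blue, right bar) at the lipid gene probes not well above background on at least 1 array, together with ELOVL2, with the probe's number in brackets. An asterisk marks a spot well above background. HPGDS (24.7 in R80C cells and 5.07 in H2A.Z.1 cells), SREBF1 probe 2 (12.2 in R80C cells and 7.95 in H2A.Z.1 cells) and VLDLR probe 3 (7.91 in R80C cells and 1.89 in H2A.Z.1 cells) carry an asterisk in R80C cells only. Over all named genes with a probe, 101 were above background in R80C cells only and 24 in H2A.Z.1 cells only.

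Other genes of these pathways were read from 4 lists. Of their 105 genes 47 had a named probe and 32 were measured on both arrays, with 10 above 0 and 22 below and a median of -0.045. Of all measured named genes 55.6% lay above 0. After scaling on the array median 15 of the 32 lay above 0 and 17 below. That scaling also raised the median of all measured named genes, from 0.013 to 0.051. Under the other alternatives 9 to 12 lay above 0 and 20 to 23 below. None of the 32 reached 1.5-fold, and 1 reached 1.2-fold, lower in R80C cells. The 7 measured other sterol genes had a median of -0.052, with 2 above 0 and 5 below, and 3 above and 4 below after scaling on the array median or quantile normalization.

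The other fatty acid synthesis and activation genes measured on both arrays were 5, with a median of -0.15, 1 above 0 and 4 below. The list as written counts HSD17B4 (-0.18), an enzyme of fatty acid breakdown in peroxisomes, among these 5. Their median is thus not one of synthesis and activation genes alone. The other breakdown genes numbered 14, with a median of -0.036, 4 above 0 and 10 below. After scaling on the array median 7 lay on each side, and by the brightest probe 6 lay above and 8 below. The other alternatives again gave 4 above and 10 below. PNPLA2, the triglyceride lipase and the gene past 1.2-fold, read 18.6, 12.2 and 8.53 in R80C cells, and 20.8, 19.2 and 11.8 in H2A.Z.1 cells (-0.40). It was named after its value was seen, and stood at -0.085 under the alternative that moved it most.

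The 6 measured prostaglandin and leukotriene genes had a median of -0.037, with 3 above 0 and 3 below. PTGDS, the other prostaglandin D synthase, read 1133 in R80C cells and 1123 in H2A.Z.1 cells (0.044). PTGS2, which supplies the precursor of prostaglandin D2, was above background on neither array. HPGD, which inactivates prostaglandins, was likewise above background on neither array, and no probe was named for PTGS1.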

How the data were processed

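Cy3-labelled RNA of 1 culture per group was read on 1-colour Agilent arrays, per the labels' protocols. The deposited scanner files hold linear intensity from Agilent Feature Extraction 11.5.1.1 (protocol GE1_1105_Oct12, grid build galGal3), background-subtracted and detrended within each array, per the file headers, with an error per spot and raw spot and background intensity. The values table deposited by the authors also holds linear intensity, with no log or centring found: it equalled the processed signal times 1.51 (R80C) and 1.50 (H2A.Z.1), with column medians of 125.1 and 129.9. How that factor was chosen stays unknown.

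Processed signals were divided by the 75th percentile of the array's 43803 non-control spots (1055 for R80C and 1078 for H2A.Z.1) and log2-transformed. Spots of a probe were averaged, then probes of a gene, leaving out probes not well above background on both arrays and any with an outlier flag. For a gene above background on 1 array only, the difference is set against the dim probe's own value or the array's detection limit, whichever is higher. That limit is the lowest well-above-background signal of the array. Spots without the flag can be brighter than it, so the result is no strict lower bound. The error of a difference combines Feature Extraction's errors on both arrays and concerns technical error only. It is the software's own figure and no spread measured between spots. The number of arrays limits the precision.

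Names came from RefSeq accessions, without versions, in a table of assembly GRCg7b: 11935 of 13060 probes with such an accession matched. No coordinates are given, since the builds differ. Every listed gene is named. Other pathway genes were to be named past 1.5-fold, and some results of the pathway lists are not reported here. The genes and lists were chosen with earlier results of these data known. No test was computed. Tools were Python 3.11.15, R 4.3.3 and limma 3.58.1, and the scaling and gene steps were tested on simulated data. Alternatives were other scalings (array median, quantile, loess, spike-in), normexp, the deposited table, 2 other filters and 2 other probe rules.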

Additional observations from a re-analysis of the deposited data

How the results depend on the processing

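No member was 1.5-fold higher with well-above-background probes, against 1 (HPGDS) with no filter on dim probes and 2 (HPGDS and VLDLR) with the positive and significant flag, which let dim probes count. No member was 1.5-fold lower in any of the 10 alternatives. Of 240 pairs of a member and an alternative, 233 stayed within the SD between probes of a gene (0.094) and 7 moved further. These were ELOVL2 (loess, normexp), CPT1A (normexp), SREBF1 and ACSL5 (both looser filters). Many pairs had little room to move. Array median and spike-in scaling shift every gene alike, and the deposited table is close to a multiple of the processed signal. The looser filters left the other measured members at the same values. The count of 233 is thus no measure of robustness. Of the 24 members, 17 kept their sign in all 10. Of all named genes, normexp with quantile normalization left 0.162% at 1.5-fold higher and 0.347% at 1.5-fold lower, in place of 0.67% and 1.27%, the positive and significant flag gave 2.75% and 3.04%, and removing the filter gave 2.66% and 3.03%. Keeping genes of a mean signal of at least 200, added after seeing the data, left 20 members, none past 1.2-fold. No paired analysis was possible because each group holds 1 array. Signals near the detection limit (6.95 on the H2A.Z.1 array, 5.81 on the R80C array) limit what can be said of HPGDS, VLDLR, ELOVL2, FADS2 and ACSL1.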
